A study of Homo sapiens with 4 samples.

Results

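The genes described here are 36 targets and regulators of the transcription factor NRF2 together with the main antioxidant enzymes. They were chosen by symbol as a pathway list, with earlier results of these data known. Shares of them set beside all measured genes below are therefore descriptions. All 36 were found among the 23228 gene symbols of each count file. RNA came from A673 cells, a long-established line grown from an Ewing sarcoma, 48 h after siRNA transfection. Libraries held total RNA without ribosomal RNA. There were 4 groups of 1 library each: siSMPD1 (siRNA against SMPD1, the gene of acid sphingomyelinase), siGPR64 (siRNA against GPR64, an adhesion G protein-coupled receptor now named ADGRG2), and a scrambled-siRNA control for each, called control_SMPD1 and control_GPR64 after the sample titles. All cultures shared IMDM medium with serum, insulin and beta-mercaptoethanol, which is itself a thiol reductant. The sources used here do not give the siRNA sequences or say whether the pairs were cultured or sequenced together.

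NRF2, encoded by NFE2L2, is held at low levels by KEAP1, which presents it to a ubiquitin ligase for degradation. When reactive cysteines of KEAP1 are modified by oxidants or electrophiles, NRF2 accumulates, pairs with a small MAF protein and binds antioxidant response elements in its target genes. BACH1 pairs with the same MAF proteins and represses several of these genes, HMOX1 above all, until haem displaces it. The targets break down haem and store iron, regenerate thioredoxin and glutathione, supply NADPH and detoxify reactive compounds. Much of the control of NRF2 itself acts on the protein, which RNA counts do not measure.

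The core of the antioxidant response element, TGACNNNGC, was searched on both strands of RefSeq promoter windows (GRCh38.p14) that run from 250 bases before to 50 bases after the start of transcription. Windows were matched for 28 of the 36 genes, and 5 of these, or 17.9%, held the core, against 13.6% of all 27305 windows. The share in these windows was thus near that of promoters in general. HMOX1, FTH1, PRDX1 and GSR were among the genes without a matched window, and elements outside the windows were not searched. The upstream match of each of the 5 genes is shown because it places the letters of the element beside genes whose levels differ in opposite ways below. Each line reads 5′ to 3′ along the gene's strand, with the 9 matched bases in capitals and up to 20 flanking bases on each side in lower case. A match in the reverse orientation reads GCNNNGTCA.
TXNRD1: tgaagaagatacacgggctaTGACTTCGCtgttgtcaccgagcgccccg
GCLM: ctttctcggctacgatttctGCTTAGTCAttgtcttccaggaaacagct
PGD: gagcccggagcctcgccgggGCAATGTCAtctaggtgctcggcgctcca
ME1: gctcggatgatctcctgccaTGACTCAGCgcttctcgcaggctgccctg
CBR1: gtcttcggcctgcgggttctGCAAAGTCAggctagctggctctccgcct
The stretches lie at chr12:104215660-104215708 (plus strand) for TXNRD1, chr1:93909436-93909484 (minus strand) for GCLM and chr1:10398843-10398891 (plus strand) for PGD. Those of ME1 and CBR1 lie at chr6:83431160-83431208 (minus strand) and chr21:36069845-36069893 (plus strand). The match of ME1 also spells TGACTCA, the letters of an AP-1 site. TXNRD1 and ME1 each hold a second match, next to or after the start site, which is not shown. A match describes letters only and is no evidence of binding.

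Gene counts summed to 19614913 and 18849264 in control_SMPD1 and siSMPD1, but to 2882854 and 2534861 in control_GPR64 and siGPR64. Levels are given as CPM, a gene's counts relative to the library's TMM-scaled total, and 3 counts, the limit that a count of 0 allows, equal 0.156 to 0.159 CPM in the SMPD1 pair and 1.03 to 1.18 CPM in the GPR64 pair. Reads that did not align uniquely, which the counting left out, were 29.1% to 30.1% of all entries in the SMPD1 pair and 20.1% to 21.4% in the GPR64 pair. Each target was lower in its own knockdown than in its titled control, SMPD1 by 4.52-fold and GPR64 by 2.16-fold. The 2 controls differed in both targets, which were lower in control_GPR64 than in control_SMPD1 by 7.85-fold (SMPD1) and 3.57-fold (GPR64). SMPD1 was at 52.8 CPM in control_GPR64, below the 91.7 CPM of siSMPD1, and was 4.38-fold higher in siGPR64 than in control_GPR64. A library labelled as a scrambled control thus held less SMPD1 RNA than the SMPD1 knockdown, and the reason was not tested. Ratios to both controls are therefore given for siGPR64. Ewing sarcoma markers summed to 973 to 1062 CPM per library, with CD99 listed at 0 in all 4. This 0 does not show that CD99 RNA was absent, because whether its reads were among those left out was not tested. Skeletal muscle markers summed to 1.71 to 2.5 CPM although the labels give muscle as the tissue. Since each group is a single library, differences between cultures were not measured. Every ratio below sets 2 libraries side by side, and its 95% interval holds the error of counting alone. A gene is counted as higher or lower when its mean is at least 1 CPM, its ratio at least 2-fold and its interval excludes equality.

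Many of the antioxidant genes stood higher in the siGPR64 library than in its titled control. Of the 36 genes, 5 were higher than in control_GPR64 (13.9%, where 6.56% of 12830 measured genes were higher) and none was lower (5.18% of measured genes, and 11.7% in either direction). These 5 were HMOX1, OSGIN1, SRXN1, TXNRD1 and TALDO1. At a threshold of 1.5-fold, 15 were higher (41.7%, against 13.2% of measured genes) and 1, PRDX3, was lower (2.78%, against 11.3%). In either direction 24.5% of measured genes passed that threshold. The median log2 ratio was 0.45, and that of all measured genes 0.01. In a bulk library, more cells that express a gene and more RNA per cell cannot be told apart. Set against control_SMPD1, 2 genes of the 36 were higher, HMOX1 and OSGIN1 (5.56%, where 6.18% of measured genes were higher), none was lower (5.25%; 11.4% in either direction), and the median log2 ratio was 0.30 beside -0.01 for all measured genes. At 1.5-fold this comparison held 10 higher genes (27.8%, against 12.4% of measured genes) and 1 lower gene, PRDX3 (2.78%, against 12.3%; 24.8% in either direction).

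Across the 4 libraries, 21 of the 36 genes had their highest level in siGPR64 (58.3%, against 26.0% of the 12887 genes whose mean reached 1 CPM). Control_GPR64 was the lowest library for 21 of the 36 (58.3%, against 32.4%), and 15 genes met both conditions (41.7%, against 9.9%). In 15 genes the siGPR64 library stood above each of the other 3 libraries with separate 95% counting intervals, a pattern found in 4.97% of the 12887 genes. They were KEAP1, MAFG, HMOX1, FTH1, FTL, TXNRD1, SRXN1, PRDX1, GCLC, GCLM, GSR, ABCC1, PGD, NQO1 and OSGIN1. PRDX2 and PRDX3 stood below the other 3 libraries in the same way, as did 4.38% of the 12887 genes. Control_GPR64 stood apart below for 7 genes (19.4%, against 9.15%), namely TXNRD1, SRXN1, PRDX1, GSR, TALDO1, NQO1 and OSGIN1, and above for NFE2L2 (2.78%, against 7.53%). The siSMPD1 library stood apart above for PRDX2, EPHX1 and CAT (8.33%, against 7.02%) and below for PRDX6 (2.78%, against 6.53%). Whether intervals separate depends on a gene's counts, which were not matched between the 36 genes and the 12887. The level of those 15 genes in siGPR64 thus exceeded both controls and siSMPD1, although the size of the difference depended on the control.

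**Figure D1:**
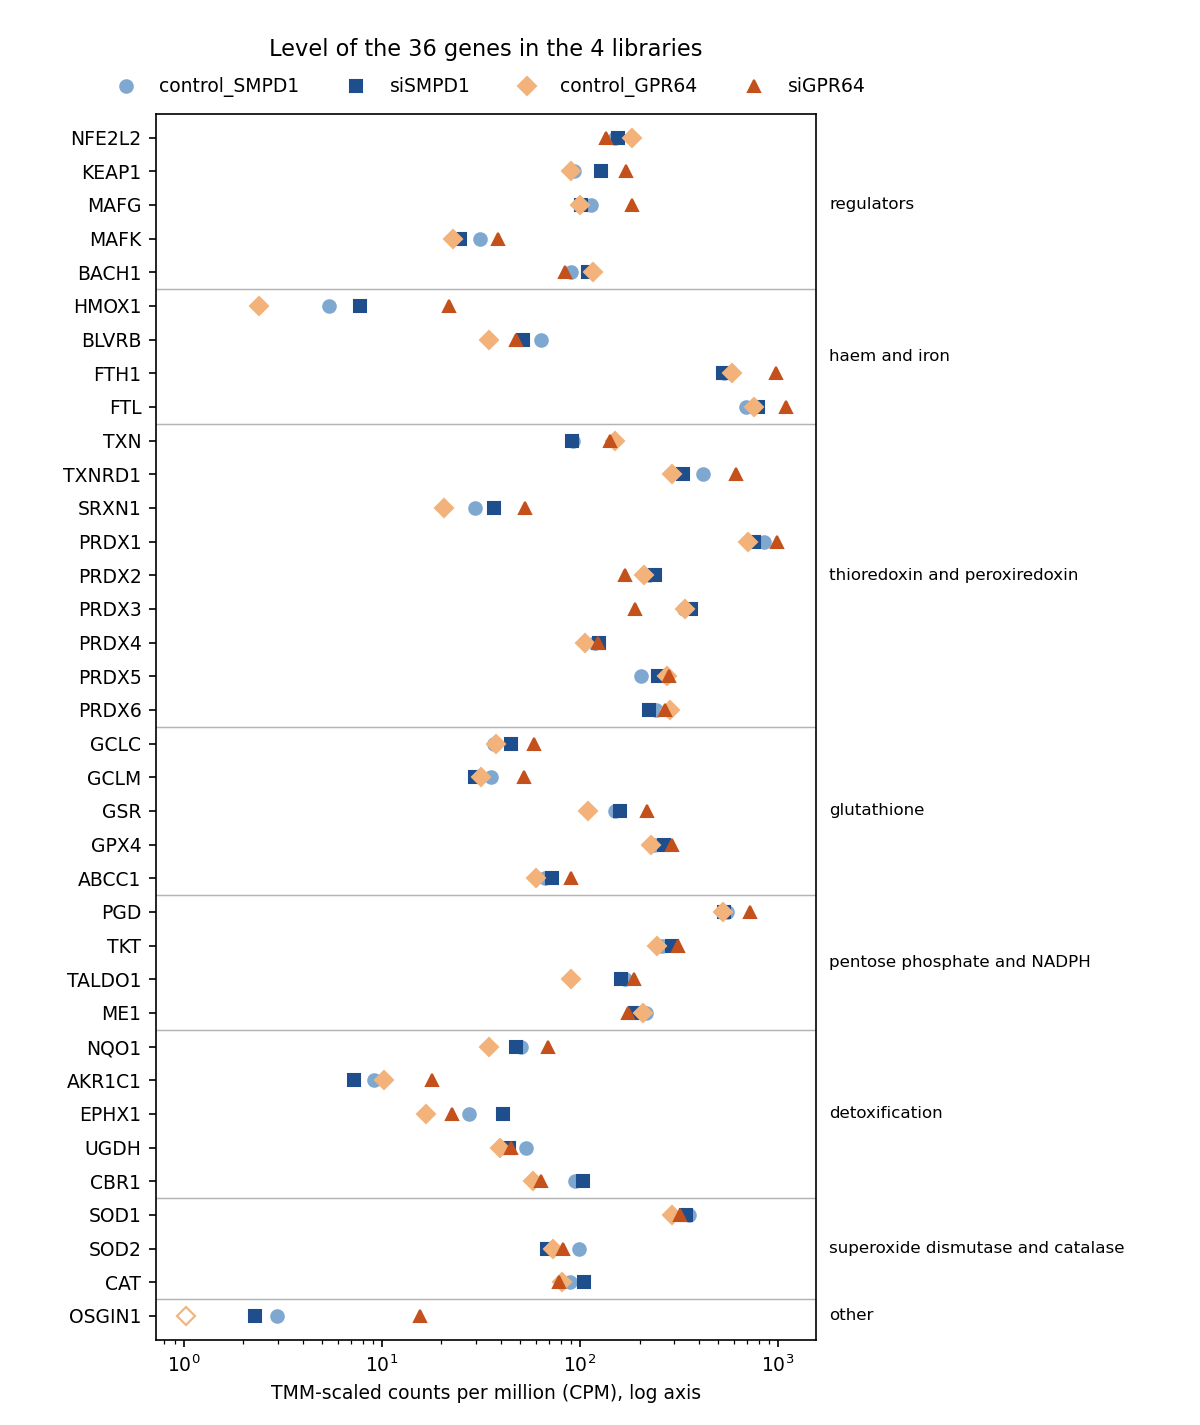
Level of each of the 36 genes in the 4 libraries, as TMM-scaled CPM on a log axis, grouped by role; each point is 1 library, and the open diamond marks OSGIN1 in control_GPR64, which had 0 counts and is drawn at 3 counts (1.03 CPM). The siGPR64 triangle is the rightmost point for 21 genes and the control_GPR64 diamond the leftmost for 21.

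Among the regulators, KEAP1 and the small MAF genes had their highest levels in siGPR64, and NFE2L2 and BACH1 their lowest. NFE2L2 was at 150.3 CPM in control_SMPD1 and 157 CPM in siSMPD1, and at 182 CPM in control_GPR64 and 136 CPM in siGPR64, where it was lowest. It was 1.34-fold lower in siGPR64 than in control_GPR64 (1.17 to 1.54) and 1.11-fold lower than in control_SMPD1, where the interval included equality. KEAP1, the adaptor that directs NRF2 to degradation, was at 93.3, 128, 89.7 and 170.02 CPM in the same order. It was 1.89-fold higher than control_GPR64 (1.62 to 2.22) and 1.82-fold higher than control_SMPD1 (1.64 to 2.03), so that the 2 controls gave nearly the same value.

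MAFG, a small MAF partner that is itself an NRF2 target, was at 113, 101, 100.02 and 183 CPM. Its ratio in siGPR64 was 1.83-fold to control_GPR64 (1.58 to 2.12) and 1.62-fold to control_SMPD1 (1.46 to 1.79). MAFK, a second small MAF gene, was at 31.2, 25.0, 23.0 and 38.4 CPM, and its ratio to control_SMPD1 (1.23-fold) had an interval that included equality. BACH1, the repressor, was at 90.1, 109, 117 and 84.2 CPM and was 1.39-fold lower in siGPR64 than in control_GPR64 (1.17 to 1.66). Against control_SMPD1 it differed by 1.07-fold, within the counting interval. None of these 5 regulators reached 2-fold in any of the 5 comparisons of 2 libraries.

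Among the 4 haem and iron genes of the list HMOX1 had the widest range and the ferritin chains the highest levels. HMOX1, haem oxygenase 1, which opens the haem ring and releases iron, was at 5.41 CPM in control_SMPD1 and 7.79 CPM in siSMPD1, and at 2.4 CPM in control_GPR64 and 21.9 CPM in siGPR64. These levels rest on 104, 147, 7 and 56 counts. The siGPR64 library was 8.57-fold above control_GPR64 (4.16 to 23.8) and 4.03-fold above control_SMPD1 (2.87 to 5.66). The siSMPD1 library was 1.44-fold above its own control (1.11 to 1.87), and control_GPR64 was 2.23-fold below control_SMPD1 (1.06 to 5.75) on its 7 counts.

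Both ferritin chains, the heavy chain FTH1 that oxidises iron and the light chain FTL that helps it mineralise inside the shell, were highest in siGPR64. FTH1 was at 536, 530.2, 587 and 982 CPM, and its 3 lower libraries lay within 1.11-fold of each other. Its ratio in siGPR64 was 1.67-fold to control_GPR64 (1.57 to 1.78) and 1.83-fold to control_SMPD1 (1.75 to 1.91). FTL was at 687, 794, 755 and 1098 CPM, with ratios of 1.45-fold (1.37 to 1.54) and 1.6-fold (1.53 to 1.66). For both chains the ratio was thus no smaller against the other control than against the titled one, unlike for HMOX1. BLVRB, a biliverdin reductase that acts on haem breakdown products, was at 63.8, 51.7, 34.9 and 47.4 CPM, above control_GPR64 but below control_SMPD1 in siGPR64.

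The ferritin result can be read beside the other iron genes, of which 14 of 16 listed reached a mean of 1 CPM. In siGPR64 against control_GPR64, 3 of the 14 were higher and none lower, where 6.56% and 5.18% of all measured genes were. TFRC, the transferrin receptor, was at 868, 713, 168 and 785 CPM, so that it was 4.68-fold higher than control_GPR64 (4.24 to 5.18) while it lay between the other 2 libraries. SLC11A2, a transporter of ferrous iron, was at 69.4, 83.9, 34.6 and 73.7 CPM and STEAP3, a ferrireductase, at 51.1, 66.9, 17.8 and 40.3 CPM. For these 3 uptake genes control_GPR64 was the library that stood apart, and against control_SMPD1 none of the 14 genes was higher or lower in siGPR64, as 6.18% and 5.25% of all measured genes were. SLC40A1, the iron exporter ferroportin and an NRF2 target, was at 1.09, 2.33, 2.06 and 2.35 CPM and was 2.11-fold higher in siSMPD1 than in control_SMPD1 (1.24 to 3.78).

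**Figure D2:**
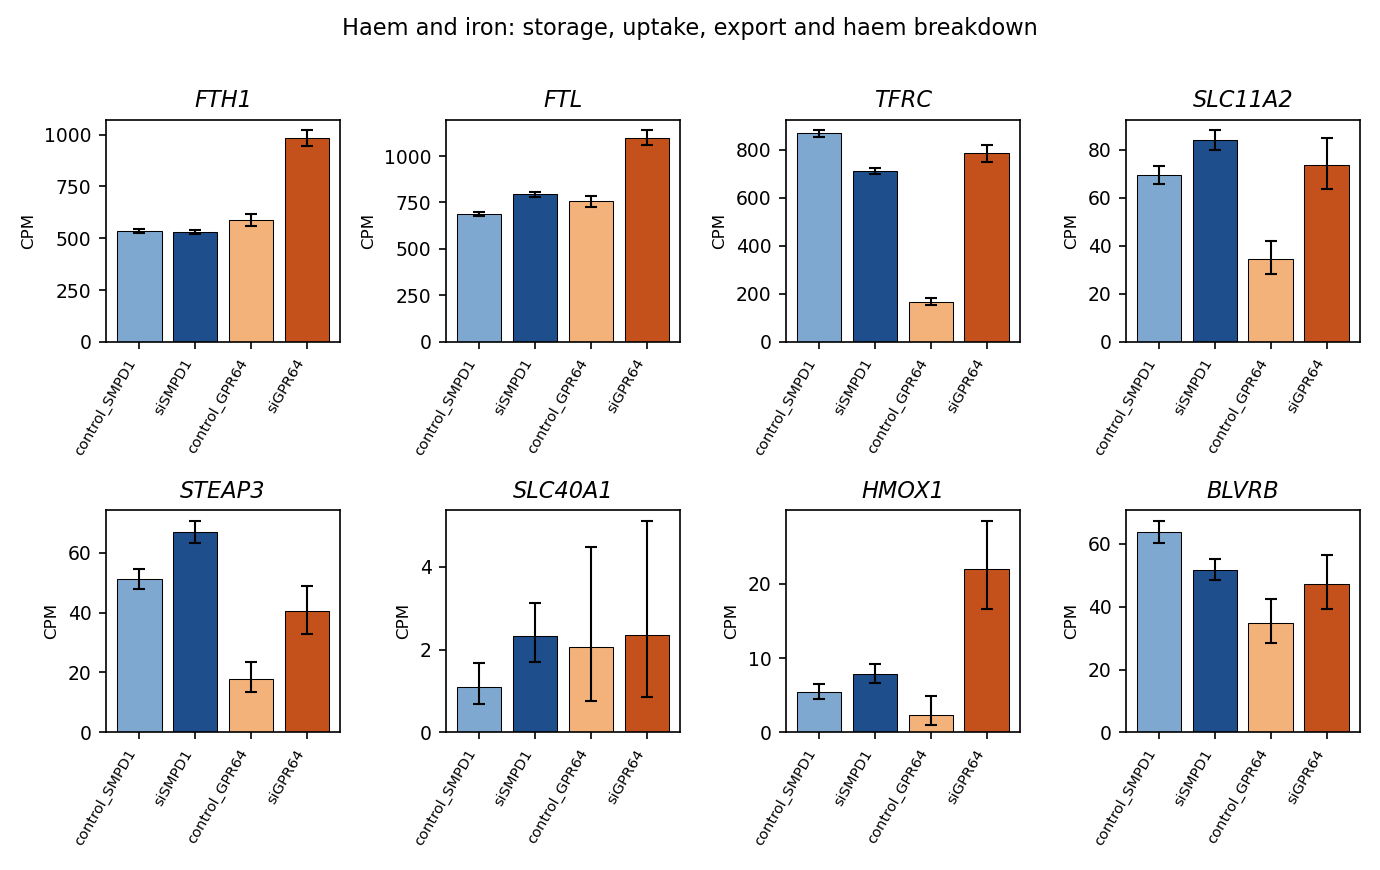
Level of haem and iron genes in CPM on linear axes that start at 0, with 1 bar per library and error bars for the exact 95% Poisson interval of the count. FTH1, FTL and HMOX1 are highest in siGPR64, whereas TFRC, SLC11A2 and STEAP3 are lowest in control_GPR64.

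In the thioredoxin system the reductases TXNRD1 and SRXN1 were highest in siGPR64, and the carrier TXN was not. TXNRD1, thioredoxin reductase, was at 421 CPM in control_SMPD1 and 333 CPM in siSMPD1, and in the GPR64 pair at 292 CPM (control) and 613 CPM (knockdown). It was 2.1-fold higher in siGPR64 than in control_GPR64 (1.93 to 2.29) and 1.46-fold higher than in control_SMPD1 (1.38 to 1.54), which is below the 2-fold threshold. SRXN1, sulfiredoxin, which restores over-oxidised peroxiredoxins, was at 29.7, 36.7, 20.6 and 52.9 CPM. Its ratio was 2.56-fold to control_GPR64 (1.88 to 3.55) and 1.78-fold to control_SMPD1 (1.47 to 2.15). TXN, thioredoxin itself, showed no such order. It was at 92.9 and 91.5 CPM in the SMPD1 pair and at 149.7 and 142 CPM in the GPR64 pair, so that it separated the pairs and not the treatments.

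The peroxiredoxins, which reduce hydrogen peroxide with electrons from thioredoxin, differed in direction. PRDX1, the cytosolic form and a known NRF2 target, was at 849, 759.6, 708 and 984 CPM and was 1.39-fold higher than control_GPR64 (1.31 to 1.47) and 1.16-fold higher than control_SMPD1 (1.11 to 1.21). PRDX3, the mitochondrial form, was at 335, 362, 338 and 189.99 CPM. It was 1.78-fold lower in siGPR64 than in control_GPR64 (1.6 to 1.99) and 1.76-fold lower than in control_SMPD1 (1.61 to 1.94), and its 3 other libraries lay within 1.08-fold. PRDX2, a second cytosolic form, was at 223, 239, 209.98 and 169 CPM, 1.24-fold lower (1.1 to 1.41) and 1.32-fold lower (1.19 to 1.46) against the same controls.

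PRDX4, the form of the secretory pathway, varied by 1.17-fold over all 4 libraries. PRDX6, which uses glutathione in place of thioredoxin, varied by 1.28-fold, and siSMPD1 was its lowest library. PRDX5 was at 203 CPM in control_SMPD1 and at 248, 275 and 281 CPM in siSMPD1, control_GPR64 and siGPR64. None of the 6 peroxiredoxins passed the 2-fold rule in any comparison.

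All 5 glutathione genes stood above both controls in siGPR64, each by less than 2-fold. GCLC and GCLM form the catalytic and modifier subunits of glutamate-cysteine ligase, which makes the first step of glutathione synthesis. GCLC was at 37.0, 45.0, 37.7 and 58.4 CPM, with ratios of 1.55-fold to control_GPR64 (1.2 to 2.0) and 1.58-fold to control_SMPD1 (1.31 to 1.89). GCLM was at 35.5, 29.6, 31.9 and 52.5 CPM, with ratios of 1.64-fold (1.26 to 2.17) and 1.48-fold (1.22 to 1.78). The 2 subunits thus had overlapping intervals in siGPR64 against either control. In the siSMPD1 pair they parted, with GCLC 1.22-fold higher (1.1 to 1.35) and GCLM 1.2-fold lower (1.07 to 1.35).

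GSR, glutathione reductase, was at 150.3 CPM in control_SMPD1 and 159 CPM in siSMPD1, and at 109 CPM in control_GPR64 and 218 CPM in siGPR64. Its ratio of 1.99-fold to control_GPR64 (1.73 to 2.29) lay just under the threshold, and it was 1.45-fold to control_SMPD1 (1.32 to 1.59). ABCC1, an exporter of glutathione conjugates, was at 66.9, 72.7, 59.9 and 90.1 CPM, 1.5-fold and 1.35-fold above the 2 controls. GPX4, the selenoenzyme that reduces lipid peroxides, was at 236, 266, 228 and 293 CPM, 1.28-fold and 1.24-fold above them. The wider glutathione list had more genes below than above either control in the same library. Of its 28 measured genes, 16 were below control_GPR64 (median log2 ratio -0.21) and 21 below control_SMPD1 (median -0.26).

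**Figure D3:**
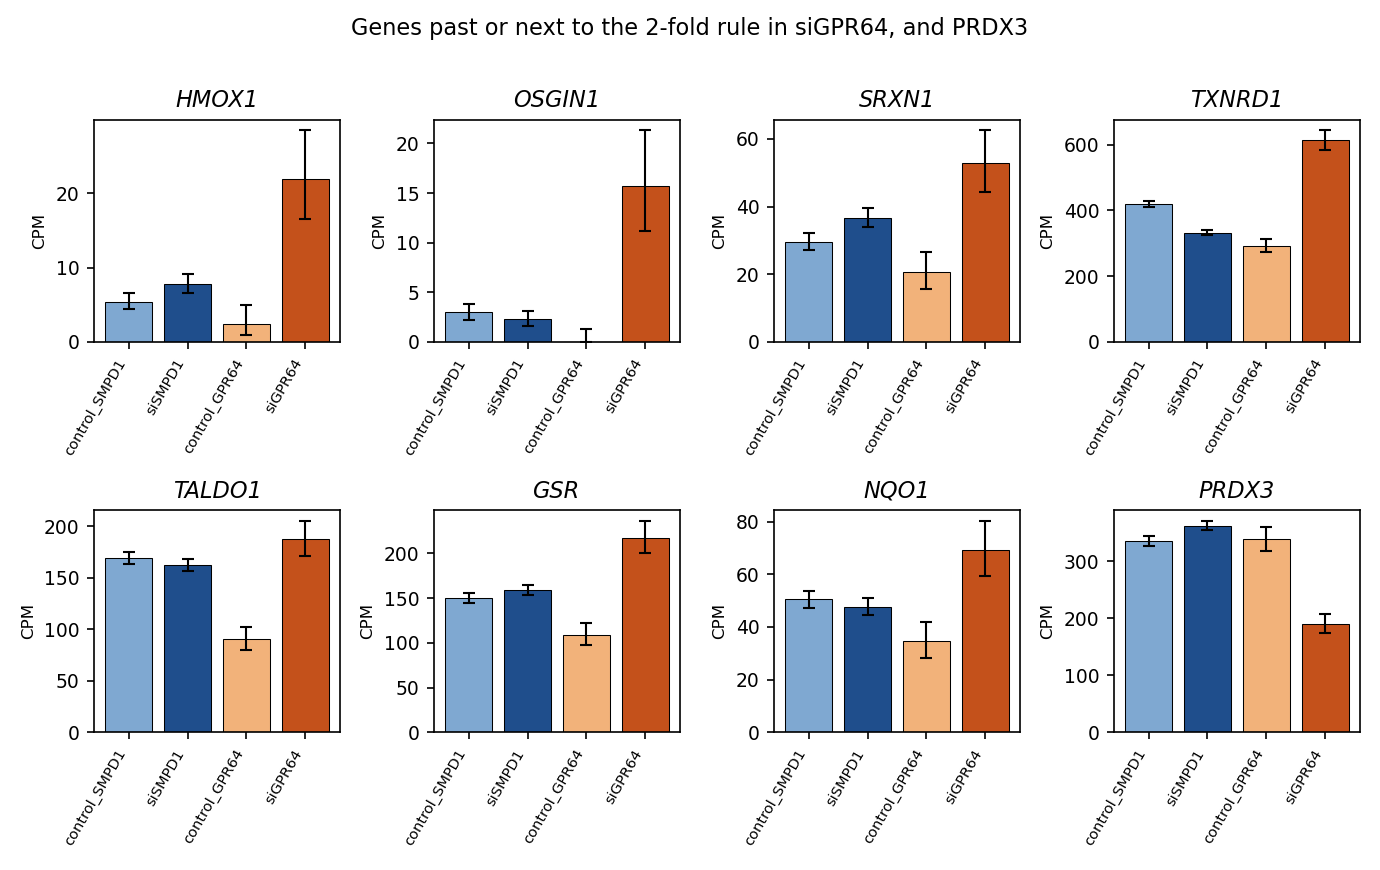
Level in CPM, on linear axes from 0, of the 5 genes past the 2-fold rule in siGPR64 against control_GPR64, of GSR and NQO1 just below it, and of PRDX3; bars are single libraries and error bars exact 95% Poisson intervals. HMOX1 and OSGIN1 in siGPR64 (21.9 and 15.7 CPM) clear all other bars, TALDO1 differs mainly through its low bar in control_GPR64 (90.1 CPM), and PRDX3 is lowest in siGPR64 (189.99 CPM).

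Of the 4 enzymes of the pentose phosphate pathway and NADPH supply, TALDO1 passed the rule in siGPR64 against control_GPR64. TALDO1, transaldolase, was at 169, 162, 90.1 and 188 CPM. It was 2.08-fold higher in siGPR64 than in control_GPR64 (1.79 to 2.43) but 1.11-fold higher than in control_SMPD1 (1.01 to 1.22), and control_GPR64 was itself 1.87-fold below control_SMPD1 (1.65 to 2.13). PGD, 6-phosphogluconate dehydrogenase, was at 554, 536, 527 and 725 CPM, 1.38-fold above control_GPR64 (1.29 to 1.47) and 1.31-fold above control_SMPD1 (1.24 to 1.37). TKT, transketolase, was at 260.04, 291, 245 and 313 CPM, with ratios of 1.28-fold and 1.2-fold. ME1, the cytosolic malic enzyme, was at 217, 189, 208 and 176 CPM and was 1.18-fold lower (1.05 to 1.34) and 1.23-fold lower (1.12 to 1.36). The promoter windows of ME1 and PGD both hold the element's letters, and any link of these letters to the levels was not tested.

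Detoxification genes were mixed. NQO1, the quinone reductase often used as a readout of NRF2, was at 50.4, 47.6, 34.6 and 69.3 CPM. Its log2 ratio of 0.999 to control_GPR64 (0.64 to 1.37) lay directly below the threshold, and it was 1.37-fold above control_SMPD1 (1.16 to 1.62). AKR1C1, an aldo-keto reductase, was at 9.16, 7.26, 10.3 and 18.0 CPM, 1.74-fold (1.08 to 2.88) and 1.96-fold (1.39 to 2.73) above the 2 controls. Scaled by total gene count instead of TMM, its log2 ratio to control_SMPD1 was 1.01, past the threshold. Reads shared with near-identical AKR1C genes are not counted, so its level is uncertain.

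The other 3 detoxification genes had their lowest levels in control_GPR64. CBR1, a carbonyl reductase, was at 94.7 and 103 CPM in the SMPD1 pair and at 58.2 and 63.9 CPM in the GPR64 pair. EPHX1, the microsomal epoxide hydrolase, was at 27.5, 40.9, 16.8 and 22.7 CPM, and its siSMPD1 level was 1.49-fold above control_SMPD1 (1.33 to 1.67) and 2.43-fold above control_GPR64 (1.83 to 3.32). UGDH, which makes UDP-glucuronic acid for conjugation, varied from 39.7 CPM in control_GPR64 to 53.2 CPM in control_SMPD1. In siGPR64 all 3 were below control_SMPD1, EPHX1 and UGDH within counting error, and had intervals that included equality against control_GPR64.

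None of the superoxide dismutases and catalase, which remove superoxide and hydrogen peroxide, was highest in siGPR64. SOD1, the cytosolic dismutase, was at 356, 343, 293 and 319 CPM, and CAT at 89.3, 105, 80.8 and 78.7 CPM. SOD2, the mitochondrial dismutase, was at 99.3, 68.2, 73.3 and 82.3 CPM. In siGPR64 the intervals of all 3 included equality against control_GPR64, and all 3 had ratios below 1 against control_SMPD1. SOD2 was 1.46-fold lower in siSMPD1 than in control_SMPD1 (1.36 to 1.56).

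OSGIN1, an oxidative stress-induced growth inhibitor and NRF2 target, was the least abundant of the genes and had the largest ratios in siGPR64. It was at 2.97 CPM in control_SMPD1 and 2.28 CPM in siSMPD1, and at 0 CPM in control_GPR64 and 15.7 CPM in siGPR64, on 57, 43, 0 and 40 counts. With 3 counts in place of 0, siGPR64 was at least 15.2-fold higher than control_GPR64, and the lower end of the 95% counting interval was 11.8-fold. Against control_SMPD1 it was 5.22-fold higher (3.43 to 8.05). The 2 deeper libraries did not differ beyond counting error, at 1.3-fold lower in siSMPD1 (0.861 to 1.98).

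Per kilobase of exon, by GENCODE release 29 lengths, the list spans a wide range of abundance. The median over the 4 libraries was 883 CPM per kilobase for FTL, 642 for PRDX1, 347 for FTH1 and 343 for SOD1, and the last 2 overlapped across libraries. At the other end it was 0.964 for OSGIN1, 1.37 for AKR1C1 and 3.62 for HMOX1. The 2 largest ratios in siGPR64, those of HMOX1 and OSGIN1, therefore belonged to genes of low abundance, and the largest differences in CPM to the ferritin chains. The summed level of the 4 haem and iron genes was 1293 and 1384 CPM in control_SMPD1 and siSMPD1, and 1379.8 and 2149 CPM in control_GPR64 and siGPR64. The 5 glutathione genes summed to 526, 573, 467 and 711 CPM in the same order.

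Silencing of SMPD1 was compared next, and these genes differed little from the titled control. In siSMPD1 against control_SMPD1 none of the 36 genes was higher or lower (0%, against 3.6% of 12749 measured genes, 2.49% higher and 1.11% lower). At 1.5-fold there was still none (0%, against 12% of measured genes, 7.26% higher and 4.78% lower). The ratios ran from 1.46-fold lower for SOD2 to 1.49-fold higher for EPHX1, 18 genes lay on each side of equality, and the median log2 ratio was 0.02. At this depth 29 of the 36 intervals excluded equality, 16 above and 13 below (80.6%, 44.4% and 36.1%). Over all measured genes these shares were 57.0%, 28.1% and 28.8%, and an interval's width depends on the gene's counts. KEAP1 was 1.37-fold higher (1.29 to 1.46) and TXNRD1 1.26-fold lower (1.22 to 1.31).

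Against control_GPR64, 3 of the 36 genes were higher in siSMPD1: HMOX1 by 3.21-fold (1.54 to 8.22), EPHX1 by 2.43-fold and OSGIN1 by at least 2.22-fold (with 3 counts in place of 0; lower end of the interval 1.73-fold). This is 8.33%, where 10.5% of 12887 measured genes were higher, and none of the 36 was lower, where 8.02% were (18.5% in either direction). At 1.5-fold 6 genes were higher (16.7%, against 18.7%) and TXN was lower (2.78%, against 16.4%), beside 35.1% of measured genes in either direction. Neither HMOX1 nor OSGIN1 passed the rule against control_SMPD1. Against both controls at once, none of the 36 was higher or lower in siSMPD1, as 0.978% and 0.605% of 12571 measured genes were. At 1.5-fold there was again none, where 3.24% of 12887 genes were higher and 2.29% lower.

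**Figure D4:**
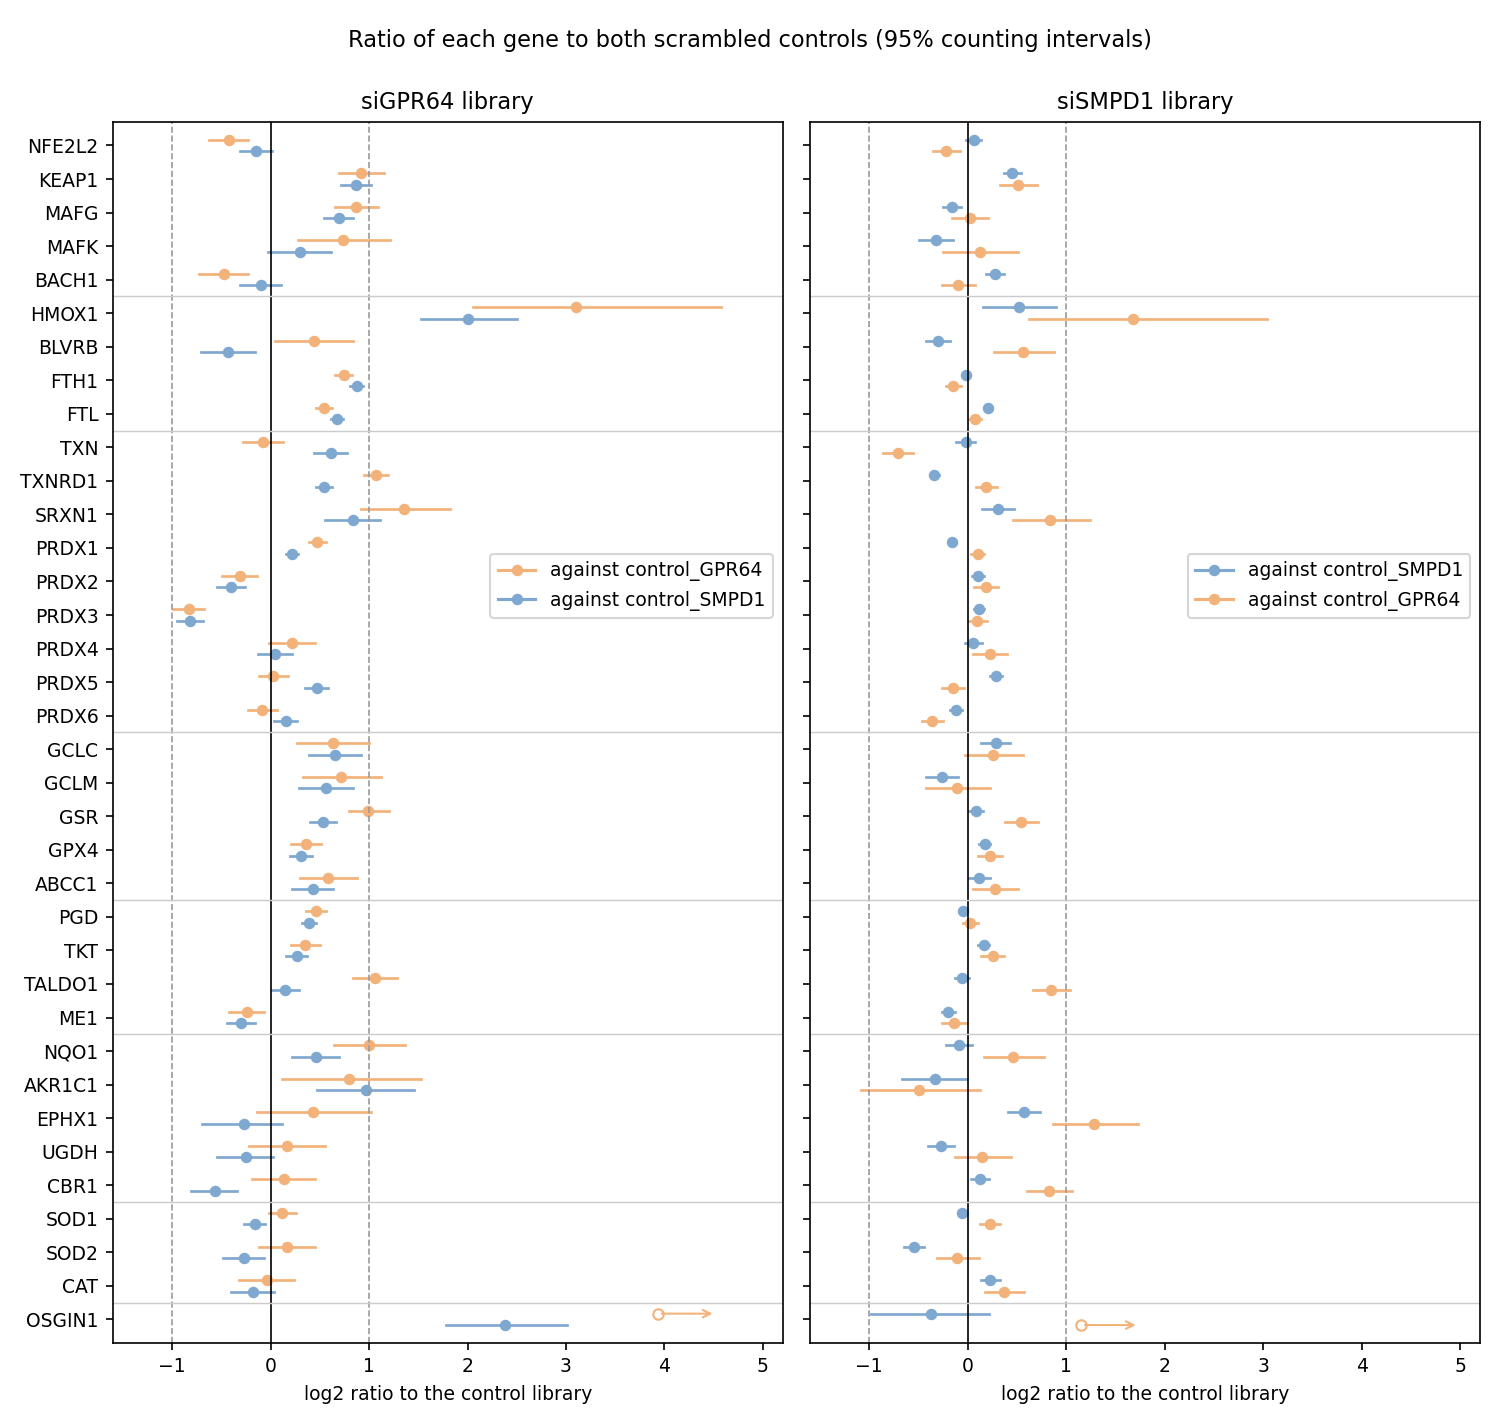
Log2 ratio of each gene in siGPR64 (left) and siSMPD1 (right) to each scrambled control, with 95% counting intervals; dashed lines mark 2-fold, and open circles with arrows are lower bounds for OSGIN1, which had 0 counts in control_GPR64. In siGPR64 the points of HMOX1, KEAP1, FTH1 and GCLC lie above 0 for both controls, and those of PRDX3 below. Of the 36 genes, 22 lie above 0 and 6 below 0 for both controls in siGPR64, beside 15 and 7 in siSMPD1.

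The 2 libraries labelled as scrambled controls were also compared with each other. In control_GPR64 against control_SMPD1, 2 of the 36 genes were lower, HMOX1 and OSGIN1 (5.56%, where 8.33% of 12798 measured genes were lower), and none was higher, where 7.02% were (15.4% in either direction). At 1.5-fold 6 were lower (16.7%, against 16.6%) and 1 was higher (2.78%, against 14.6%), beside 31.1% in either direction. The median log2 ratio of the 36 was -0.16, and -0.01 over all measured genes. TALDO1 (1.87-fold lower), BLVRB (1.82-fold lower), EPHX1 (1.64-fold lower) and CBR1 (1.63-fold lower) were next. TXN was the gene with the largest ratio in the other direction, at 1.61-fold higher (1.45 to 1.79). The comparisons with control_GPR64 share this library, so its low values enter every ratio to it.

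Held against both controls, 2 of the 36 genes were higher in siGPR64 by the 2-fold rule, HMOX1 and OSGIN1, as 1.52% of 12561 measured genes were, and none was lower, as 1.4% were. At 1.5-fold the count was 8 (22.2%, against 3.84% of 12887 genes): KEAP1, MAFG, HMOX1, FTH1, SRXN1, GCLC, AKR1C1 and OSGIN1. PRDX3 was the single gene lower by this measure (2.78%, against 3.98%). With both controls taken as replicates of 1 group, edgeR's quasi-likelihood test called none of the 36 genes in siGPR64 at an adjusted p under 0.05. It gave 4 genes at an unadjusted p under 0.05, HMOX1, OSGIN1, KEAP1 and SRXN1, and DESeq2 gave HMOX1 and OSGIN1. Over all genes in siGPR64, neither tool called any at an adjusted p under 0.05, with 305 (edgeR) and 212 (DESeq2) at an unadjusted p under 0.05. For siSMPD1 neither tool gave any of the 36 genes at an adjusted or an unadjusted p under 0.05.

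Other genes of these pathways, 115 in 7 lists, were more evenly divided. In siGPR64 against control_GPR64, 9 of 100 measured genes were higher and 5 lower (6.56% and 5.18% of all measured genes), and the median log2 ratio was 0.04. Against control_SMPD1, 5 of 101 were higher (MAFF, NXN, MSRB3, SEPW1 and CYGB) and 4 lower (ME3, ALDH1L2, CBR3 and PRNP), with a median of -0.13. Neither count exceeded the share over all measured genes (6.18% higher and 5.25% lower). SEPW1, a selenoprotein of redox function, was higher in siGPR64 against either control, at 46.9, 48.0, 47.3 and 113 CPM. It was 2.38-fold (1.94 to 2.95) and 2.4-fold (2.1 to 2.75) higher. SESN2, a sestrin induced by stress, was at 67.4, 41.1, 178 and 43.5 CPM, and CHAC1, which degrades glutathione, at 40.8, 28.99, 92.5 and 26.6 CPM. Both were lower in siGPR64 than in control_GPR64, by 4.09-fold and 3.46-fold, and control_GPR64 was their highest library.

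In siSMPD1 against control_SMPD1, 2 of 100 measured pathway genes were higher and 3 lower, beside 2.49% and 1.11% of all measured genes, so the share of higher genes was near the background. SLC7A11, the cystine carrier that feeds glutathione synthesis and a target of both NRF2 and ATF4, was at 371, 177, 285 and 257 CPM. It was 2.09-fold lower in siSMPD1 (2.01 to 2.18), while GCLC, GCLM and GSR each differed by at most 1.22-fold. ALDH1L2, a mitochondrial folate enzyme that yields NADPH, was 2.57-fold lower (2.35 to 2.81), at 93.5, 36.4, 27.7 and 45.4 CPM. Its siSMPD1 level thus lay above control_GPR64, which was itself 3.37-fold below control_SMPD1. PRNP, the prion protein, was 2.02-fold lower (1.94 to 2.11), at 357, 177, 234 and 149 CPM. CYGB, cytoglobin, was 2.06-fold higher (1.22 to 3.64) at 1.15 and 2.38 CPM.

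Some values carry limits of counting. In GENCODE release 29, 10 of the 36 genes have named pseudogenes, with 25 for FTH1 and 16 for FTL, and reads shared with such copies are not in the counts. Without a stated strand setting, reads of 11 genes with exons that overlap an antisense gene, among them FTH1, PRDX1, PRDX2, NFE2L2, GCLC and NQO1, could include reads of the partner. Markers of other cell types differed within the GPR64 pair as well. The 5 epithelial markers summed to 79.1 CPM in control_GPR64 and 144 CPM in siGPR64, of which KRT18 gave nearly all, against 129 to 153 CPM in the SMPD1 pair. The 6 endothelial and fibroblast markers came to 38.7 CPM in control_GPR64 and 77.6 CPM in siGPR64, where COL1A1 made up 75.2 CPM. They came to 26.1 and 26.4 CPM in the SMPD1 pair. PECAM1, VWF and LUM were at 0 in both libraries of the shallower GPR64 pair. In control_SMPD1 and siSMPD1 they had 5 and 4 (PECAM1), 1 and 0 (VWF) and 14 and 2 counts (LUM). The 6 immune markers summed to 3.08 and 7.44 CPM in the GPR64 pair (PTPRC, CD3E and LYZ among those at 0), whereas the SMPD1 pair held 10.6 and 13.4 CPM. The part of these genes in the results was not tested.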

How the data were processed

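Each deposited file gives 1 library as whole-number counts for gene symbols, which the authors had not normalized. TopHat2, HTSeq, SAMtools, bcl2fastq and the hg19 build are listed in the submitters' processing notes. The sources used here do not give the annotation, strand setting or counting mode. The labels' protocols describe ribosome-depleted total RNA and paired-end reads. HTSeq's summary lines, 36.5% to 44.8% of entries, were left out of library sizes.

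Counts were scaled with TMM factors (edgeR 4.0.16, R 4.3.3). A prior of 0.5 count, scaled with each library's size, was added before log2 ratios were taken, and fold values are those ratios as sizes. Intervals are exact 95% Clopper-Pearson intervals of the share of reads in 2 libraries. They hold the error of counting alone, as the reads carry no molecular identifiers and can repeat a molecule. The rule of size was a mean of at least 1 CPM, a ratio of at least 2-fold and an interval that excludes equality, and it was tested on simulated counts. In other fits, DESeq2 1.42.0 and the quasi-likelihood test of edgeR took both controls as 1 group, which assumes that each knockdown library varies as the controls do. Other scalings, filters, priors and thresholds were also tried.

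All 36 members may be named. From the other pathway lists, up to 4 genes per list and comparison past the rule were eligible, those whose interval bound nearest equality lay furthest from it. The members and lists were chosen with earlier results of these data known, so their counts are descriptions. Promoter windows come from RefSeq (GRCh38.p14), and exon lengths, pseudogene names and overlaps from GENCODE release 29, a build other than that of the counts.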

Additional observations from a re-analysis of the deposited data

Results flagged for a closer look

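In 11 of the 36 genes the counting intervals lay on opposite sides of equality in the 2 titled pairs, so that the gene was higher in 1 knockdown and lower in the other (30.6%, where 11.7% of 12386 genes measured in both pairs did so). Whether an interval excludes equality depends on a gene's counts. The difference between the pairs was not tested, since each pair is 2 libraries. As siGPR64 minus siSMPD1 on the log2 scale, it was 1.41 for TXNRD1, 1.13 for AKR1C1, 1.06 for MAFK, 1.03 for MAFG and 0.98 for GCLM. It was 0.74 for BLVRB, 0.63 for PRDX1 and 0.51 for PGD. These 8 genes were higher in siGPR64 and lower in siSMPD1 than in the titled control. In the opposite direction it was -0.95 for PRDX3, -0.76 for BACH1 and -0.42 for PRDX2. TXNRD1 was the single gene of the 11 that passed the 2-fold rule in either pair.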

How the results depend on the processing

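The number of genes past the 2-fold rule stayed within 1.5 times the reported number under DESeq2 size factors, total gene count and a prior of 2 counts, in all 5 comparisons. Dropping the filter on low counts could not change this number, since every gene of the list already passed that filter in each comparison. Leaving out 8 genes that have near-identical copies could not change it either, since none of the 8 passed the rule in any comparison. A threshold of 1.5-fold gave 16 genes for siGPR64 against control_GPR64, 11 against control_SMPD1, 7 for siSMPD1 against control_GPR64 and 7 between the controls, in place of 5, 2, 3 and 2. A filter at a mean of 5 CPM left 0 of the 2 genes between the controls, because HMOX1 and OSGIN1 lie under it there. Taking both controls as 1 group, edgeR and DESeq2 each gave 0 genes for siGPR64 at an adjusted p under 0.05. As an alternative chosen after seeing the data, the other control gave 2 genes for siGPR64 in place of 5 and 3 for siSMPD1 in place of 0. Of 540 single-gene ratios under 2 other scalings and another prior, 1 changed its side of the rule (AKR1C1, above) and none reversed. Size factors and total counts moved the median of all genes by at most 0.05 (log2). The shallow GPR64 pair limits low genes, since the interval of HMOX1 there rests on 7 counts. No paired analysis was possible because the labels give no replicate numbers and each group is 1 library.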
